A study of Mus musculus with 6 samples.

Results

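A group of 10 genes that natural killer (NK) cells and cytotoxic T cells use to recognise and kill target cells was followed in the lungs of *Zpbp2* KO and WT mice. The members were chosen by symbol, as genes known from NK cells and their granules (*Gzma*, *Gzmb*, *Prf1*, *Nkg7*, *Ctsw*, *Ncr1*, *Klrk1*, *Klrd1*, *Klrb1c* and *Eomes*). Each symbol was found on 1 row of the table of 47069 genes. All 10 were among the 17037 genes that passed the filter on low counts and were tested. The 3 KO mice (KO4 to KO6) carried a germline deletion of the first exons of *Zpbp2* on a C57BL/6J background, from the strain B6.129S7-Zpbp2tmZuk/Mmjax, and were compared with 3 WT C57BL/6J mice (WT4 to WT6) of the same colony. All were adults kept in a light/dark cycle, and whole lungs were taken at ZT10, which is 10 hours after lights on. Each library came from the RNA of 1 mouse. The deletion is present in every cell, so lung and immune cells both carry it, and the sources used here do not say whether blood was flushed from the lungs.

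NK cells are lymphocytes of the innate immune system that patrol the blood and the lung capillaries. Activating receptors such as NKp46 (*Ncr1*) and NKG2D (*Klrk1*) recognise infected or stressed cells, while receptors for MHC class I molecules can hold the cell back. On contact, granules are released whose perforin opens the target membrane and whose granzymes enter and cleave proteins that lead to cell death. Cytotoxic T cells share the granule proteins and several of the receptors, whereas *Ncr1* and *Klrb1c* (NK1.1) are used as NK cell markers in C57BL/6 mice.

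In KO lungs the fitted level of each of the 10 genes was higher than in WT lungs, by 1.18-fold to 1.82-fold. *Klrk1* and *Ncr1* rose past the threshold of the test. The genes of the granzymes A and B differed least, with folds of 1.23 and 1.18 and overlapping groups. The median log2 fold change of the 10 genes was 0.74, beside 0.00295 over all genes tested. With a Benjamini-Hochberg adjusted p of at most 0.05 in the quasi-likelihood test of edgeR as the threshold, 2 of the 10 were called, both higher in KO mice. Over all genes 6.39% were called in either direction, and 3.72% were called as higher in KO mice. An unadjusted p under 0.05 was found for 8 of the 10 members and for 25.5% of all genes. In 7 of the 10 every KO library lay above every WT library, against 17.0% of all genes. RNA from a whole organ cannot tell a larger number of NK cells from more RNA in each of them.

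**Figure D1:**
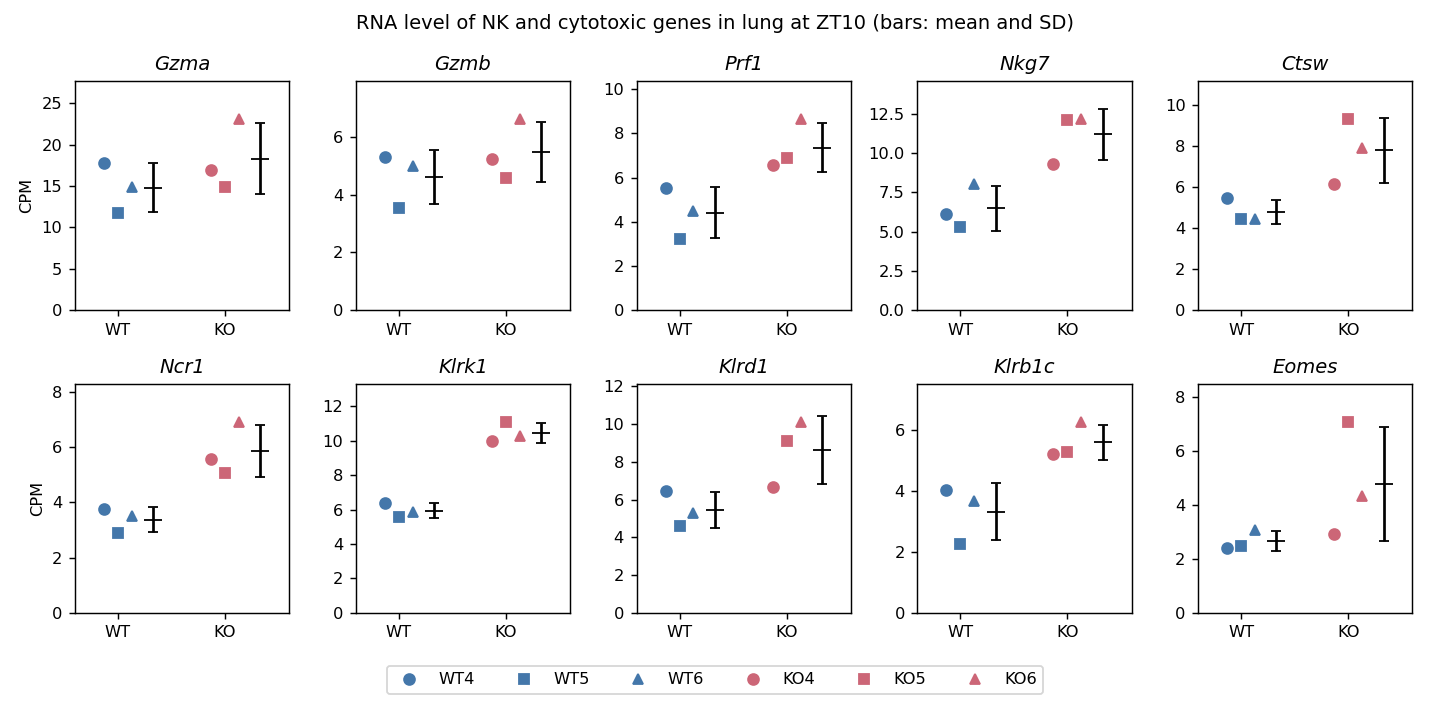
RNA level in CPM (counts scaled to the TMM library size, linear axes from 0) of each member in the 3 WT and 3 KO libraries, with a symbol for each library and a bar for the mean and SD of each group (n = 3). In *Ncr1*, *Klrk1*, *Klrd1*, *Klrb1c*, *Prf1*, *Nkg7* and *Ctsw* the KO points lie above the WT points, while the points of *Gzma*, *Gzmb* and *Eomes* overlap.

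The libraries held between 19981428 counts (KO6) and 46796908 counts (KO5), and the members together held 961 to 1800 counts in WT libraries and 1525 to 4072 in KO libraries. The lowest count of any member in a library was 47 (*Klrb1c* in WT5), for which the exact 95% Poisson interval, covering counting error only, runs from 34.5 to 62.5. The RNA of *Zpbp2* itself was near the detection limit, with 1 or 2 counts per WT library and none in KO libraries, which is too few to check the labels. *Xist* had at least 15033 counts in every library, and the Y-linked *Ddx3y* had 9 counts in KO5 and none in the other libraries. The labels give no sex. KO5 stood apart from the other KO libraries. The 8 B cell marker genes summed to 990.7 CPM there, against 239.6 CPM in KO4, 276.7 CPM in KO6 and 120.9 to 144 CPM in the WT libraries. Values without KO5 are given where its absence changed a call. In the fit without it *Klrk1* and *Ncr1* were again the 2 members called, and the median of the 10 log2 fold changes was 0.66.

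The members lie on 7 chromosomes of the GRCm38 build (GENCODE release M21), and 3 of the receptor genes, *Klrb1c*, *Klrd1* and *Klrk1*, share 0.845 Mb of the NK gene complex on chromosome 6. Promoters from RefSeq (GRCm38.p6) were matched for 8 of the members, *Ncr1* with 2 overlapping windows. *Klrd1* and *Ctsw* had no entry. The 200 bases before the start site are shown for the called receptors *Klrk1* and *Ncr1* and for the granzymes *Gzma* and *Gzmb*, so that the genes called and those with the smallest differences can be read side by side. They run 5′ to 3′ on the strand of the gene, and capitals mark matches to the motifs described after them. For *Gzmb* the RefSeq start lies upstream of the GENCODE gene, and the bases just after it were found in no GENCODE transcript of the gene. For *Klrk1*, *Ncr1* and *Gzma* those bases were found.
Klrk1, chr6:129623865-129624064, minus strand: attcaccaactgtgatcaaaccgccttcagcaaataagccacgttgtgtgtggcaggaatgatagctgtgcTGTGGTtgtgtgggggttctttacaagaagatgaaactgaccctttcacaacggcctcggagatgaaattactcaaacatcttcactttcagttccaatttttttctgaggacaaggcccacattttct
Ncr1, chr7:4337524-4337723, plus strand: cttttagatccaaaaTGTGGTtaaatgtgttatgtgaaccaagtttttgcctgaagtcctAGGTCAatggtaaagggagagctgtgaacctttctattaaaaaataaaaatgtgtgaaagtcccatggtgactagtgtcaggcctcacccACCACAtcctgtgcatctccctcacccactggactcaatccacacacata
Gzma, chr13:113100982-113101181, minus strand: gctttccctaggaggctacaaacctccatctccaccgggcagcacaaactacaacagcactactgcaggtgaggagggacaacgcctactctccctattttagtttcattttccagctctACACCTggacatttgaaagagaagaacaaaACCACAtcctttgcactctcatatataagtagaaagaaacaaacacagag
Gzmb, chr14:56262335-56262534, minus strand: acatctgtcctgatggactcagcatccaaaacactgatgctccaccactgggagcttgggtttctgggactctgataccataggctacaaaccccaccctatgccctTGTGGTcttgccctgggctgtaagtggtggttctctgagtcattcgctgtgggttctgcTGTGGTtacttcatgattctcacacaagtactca

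The motifs were searched on both strands of 300-base windows, from 250 bases before to 50 after each start. The RUNX core TGTGGT was present in 7 of the 8 genes, with *Eomes* lacking it, and in 16.8% of the 32851 promoters of the table. In the *Ncr1* sequence it occurs once on each strand, and in the *Gzmb* sequence it occurs as 2 copies on the plus strand of the gene. The T-box core AGGTGT, read by the family that includes EOMES and T-bet, was present in *Gzma*, *Nkg7* and *Prf1* (3 of 8 genes) and in 13.7% of all promoters. In *Gzma* it lies on the reverse strand, as ACACCT. The half-site AGGTCA of the clock receptors REV-ERB and ROR was found in *Ncr1* and *Klrb1c* (2 of 8 genes) and in 16.3% of all promoters. The E-box CACGTG (7.15% of all promoters) and the D-box TTATGTAA (0.94% of all promoters) had no match in the 8 genes. No match overlapped another. These are letters in a window, and binding was not measured.

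Among the receptors, *Klrk1* (ENSMUSG00000030149, chromosome 6 from 129610323 to 129623864, minus strand) encodes NKG2D, which binds stress-induced ligands. It measured 6.40, 5.56 and 5.85 CPM in WT4, WT5 and WT6 and 9.97, 11.1 and 10.3 CPM in KO4, KO5 and KO6. The lowest KO library lay well above the highest WT library, and the spread within each group was the smallest of the 10 genes relative to the difference. The log2 fold change was 0.82 (SE 0.110), with a Benjamini-Hochberg adjusted p of 0.0171 in the quasi-likelihood test of edgeR. Leaving out each library in turn kept it between 0.76 and 0.87, and the adjusted p was at most 0.05 without WT4, KO4 or KO5 but not without WT5, WT6 or KO6, where the largest was 0.0994.

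*Ncr1* (ENSMUSG00000062524, chromosome 7 from 4337724 to 4345164, plus strand) encodes NKp46, an activating receptor used as an NK cell marker. Its levels were 3.74, 2.88 and 3.49 CPM in WT4, WT5 and WT6 and 5.57, 5.08 and 6.91 CPM in KO4, KO5 and KO6. The groups did not overlap, and KO6 held the highest value. The log2 fold change of 0.79 (SE 0.174) had a Benjamini-Hochberg adjusted p of 0.0450 in edgeR, close to the threshold. With 1 library left out it ranged from 0.65 to 0.88 and passed the threshold only without KO5, while its adjusted p reached 0.163 in the fits without another library.

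*Klrb1c* (ENSMUSG00000030325, chromosome 6 from 128778485 to 128789215, minus strand) encodes NK1.1, the surface antigen by which NK cells of this strain are sorted. It had 4.03, 2.25 and 3.69 CPM in WT4, WT5 and WT6 and 5.23, 5.29 and 6.27 CPM in KO4, KO5 and KO6. WT5 was lowest and no KO library fell within the WT range. The log2 fold change was 0.74 (SE 0.225, edgeR adjusted p = 0.0958). Its exons share 413 bases with *Gm44511* on the same strand, a gene with 1 count in WT4 and none in the other libraries. Those counts do not show how reads in the shared bases were treated. *Klrb1c* also has close relatives in the *Klrb1* family. Reads that match several of them cannot be assigned with certainty, so its level is less certain than that of *Ncr1*.

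*Klrd1* (ENSMUSG00000030165, chromosome 6 from 129591782 to 129598775, plus strand) encodes CD94, which pairs with the NKG2 chains and binds the MHC molecule Qa-1. It measured 6.48, 4.60 and 5.30 CPM in WT4, WT5 and WT6 and 6.65, 9.13 and 10.1 CPM in KO4, KO5 and KO6. KO4 lay just above WT4, so the groups were separate by a narrow margin. The log2 fold change of 0.66 (SE 0.197) had an edgeR adjusted p of 0.0935 and passed the threshold without KO4 (0.81).

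Of the granule genes, *Prf1* (ENSMUSG00000037202, chromosome 10 from 61297833 to 61304680, plus strand) encodes perforin, the pore that lets granzymes into the target. It measured 5.52, 3.21 and 4.50 CPM in WT4, WT5 and WT6 and 6.55, 6.88 and 8.64 CPM in KO4, KO5 and KO6, with no overlap. The log2 fold change was 0.73 (SE 0.216, edgeR adjusted p = 0.0909). *Nkg7* (ENSMUSG00000004612, chromosome 7 from 43437073 to 43438249, plus strand) encodes a membrane protein of cytotoxic granules that takes part in their release. Its values were 6.12, 5.27 and 8.05 CPM in WT4, WT5 and WT6 and 9.29, 12.1 and 12.1 CPM in KO4, KO5 and KO6. The KO libraries again lay above the WT libraries, and the log2 fold change of 0.78 (SE 0.187) had an edgeR adjusted p of 0.0538, just over the threshold.

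*Ctsw* (ENSMUSG00000024910, chromosome 19 from 5465043 to 5468507, minus strand) encodes cathepsin W, a cysteine protease found in NK cells and cytotoxic T cells. It measured 5.47, 4.46 and 4.46 CPM in WT4, WT5 and WT6 and 6.16, 9.31 and 7.90 CPM in KO4, KO5 and KO6. The groups were separate, with KO5 highest, and the log2 fold change was 0.71 (SE 0.182, edgeR adjusted p = 0.0649). Its exons share 9 bases with *Fibp* on the opposite strand, and whether the counting used strand is not stated.

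The granzyme genes had the smallest log2 fold changes of the 10. *Gzma* (ENSMUSG00000023132, chromosome 13 from 113093825 to 113100981, minus strand) encodes a protease that cuts after basic residues. It measured 17.7, 11.8 and 14.8 CPM in WT4, WT5 and WT6 and 17.0, 14.9 and 23.1 CPM in KO4, KO5 and KO6. Only KO6 lay above the highest WT library, and the log2 fold change was 0.30 (SE 0.201, edgeR adjusted p = 0.395). *Gzmb* (ENSMUSG00000015437, chromosome 14 from 56258838 to 56262260, minus strand) encodes the protease that cuts after aspartate and activates caspases. Its values were 5.31, 3.55 and 4.98 CPM in WT4, WT5 and WT6 and 5.23, 4.59 and 6.62 CPM in KO4, KO5 and KO6. The groups overlapped in the same way as for *Gzma*, with a log2 fold change of 0.24 (SE 0.207, edgeR adjusted p = 0.522). With 1 library left out these values ranged from 0.10 to 0.45 for *Gzma* and from 0.08 to 0.35 for *Gzmb*.

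*Eomes* (ENSMUSG00000032446, chromosome 9 from 118478212 to 118486132, plus strand) encodes the T-box factor that NK cells need to mature and that memory CD8 T cells also express. It measured 2.42, 2.49 and 3.07 CPM in WT4, WT5 and WT6 and 2.93, 7.09 and 4.35 CPM in KO4, KO5 and KO6. KO4 lay within the WT range and KO5 was far above the rest, so its log2 fold change of 0.86 was the largest of the members and also had the largest SE, 0.317 (edgeR adjusted p = 0.147). Without KO5 the log2 fold change of *Eomes* was 0.44. An antisense gene, *Gm33460*, overlaps 118 bases of its exons and was not analysed here.

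**Figure D2:**
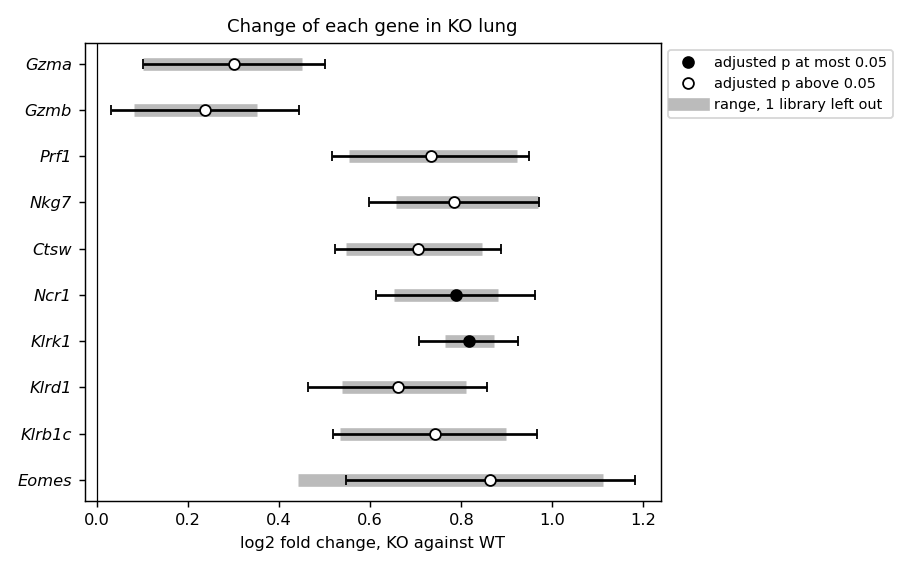
Log2 fold change of each member in KO against WT lung (points, with bars of 1 SE from edgeR, n = 3 and 3) over the range of the fits that each left out 1 library (grey). Filled points, *Ncr1* and *Klrk1*, had an adjusted p of at most 0.05, and the values of *Gzma* and *Gzmb* lie nearest to 0.

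Per length of exon, the order of the WT levels was *Gzma* (14.7 ± 2.94 RPKM, SD, n = 3), *Nkg7* (7.09 ± 1.56), *Klrd1* (4.26 ± 0.742), *Gzmb* (3.21 ± 0.654), *Ctsw* (2.54 ± 0.311), *Ncr1* (2.19 ± 0.290), *Prf1* (1.71 ± 0.447), *Klrb1c* (1.12 ± 0.318), *Klrk1* (0.827 ± 0.0595) and *Eomes* (0.640 ± 0.0865). *Gzma* stood above *Nkg7*, and *Nkg7* above *Klrd1*, by more than their SDs, whereas from *Klrd1* down to *Klrk1* the mean ± SD of each gene overlapped that of its neighbour. *Eomes* lay below *Klrk1* by more than their SDs. The length counts the exons of all annotated isoforms, 7183 bases for *Klrk1*, which lowers the value of a gene with long alternative exons.

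The order of the libraries was similar from gene to gene. WT5 was the lowest WT library for 9 of the 10 genes and WT4 the highest for 8. Among KO libraries KO6 was highest for 7 members and KO5 for 3 (*Klrk1*, *Eomes* and *Ctsw*), and KO4 was lowest for 7. On the log2 scale the median deviation of the 10 genes from the WT mean was 0.21, -0.25 and 0.06 in WT4, WT5 and WT6 and 0.45, 0.73 and 0.85 in KO4, KO5 and KO6. All 10 lay above the WT mean in each KO library.

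Ratios of counts within a library were compared by two-sided exact permutation tests, which for 3 mice against 3 cannot give a p below 0.1. There were 4.73, 4.10 and 4.24 counts of *Gzma* for each count of *Ncr1* in WT4, WT5 and WT6, and 3.04, 2.93 and 3.34 in KO4, KO5 and KO6. The ratio was lower in every KO library, at 0.712 of the WT value (exact permutation test, p = 0.1). For *Gzmb* the ratio to *Ncr1* was 1.42, 1.23 and 1.43 in WT4, WT5 and WT6 and 0.939, 0.905 and 0.957 in KO4, KO5 and KO6, or 0.688 of the WT value (exact permutation test, p = 0.1). The other 7 members had overlapping ratios to *Ncr1*, with mean log2 differences from -0.14 to 0.02. Thus 2 of 9 members were lower relative to *Ncr1* in every KO library, while 78.3% of all genes were, and *Ncr1* itself was called higher. Without KO5 the ratios of *Klrd1*, *Eomes* and *Ctsw* also lay below the WT range, making 5 of 9 members, against 86.7% of all genes. The 2 granzymes kept their ratio to each other, with 0.300, 0.301 and 0.336 counts of *Gzmb* for each count of *Gzma* in WT4, WT5 and WT6 and 0.308, 0.309 and 0.287 in KO4, KO5 and KO6.

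**Figure D3:**
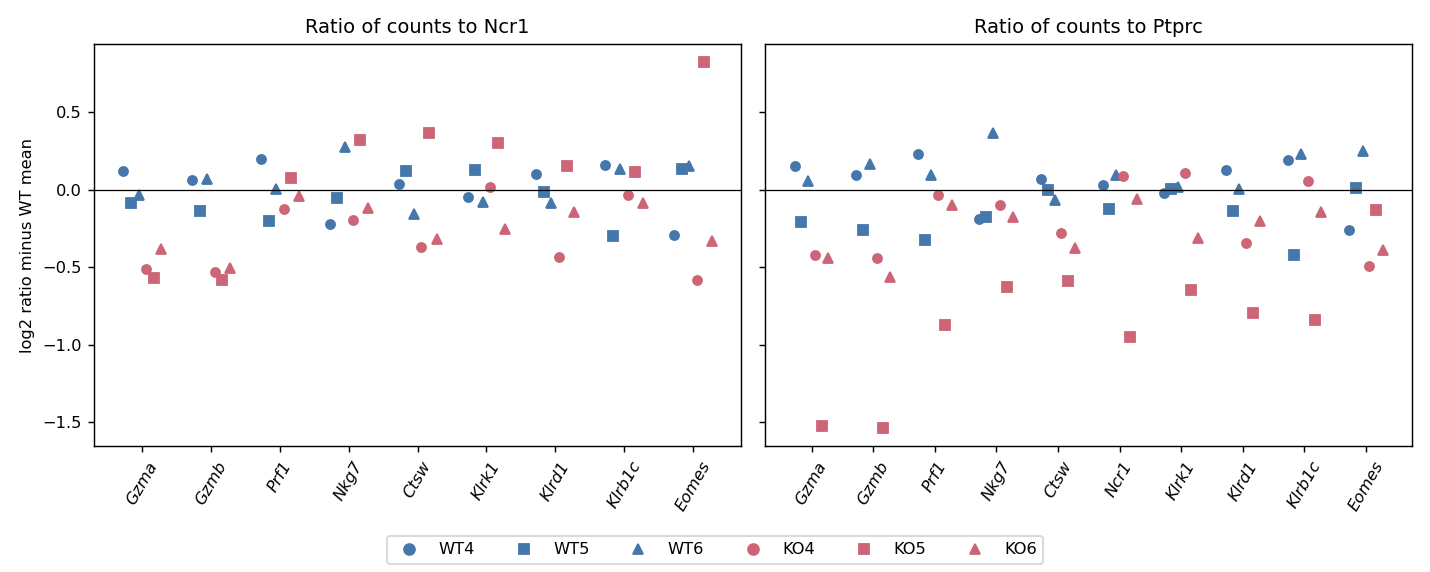
Log2 ratio of the counts of each member to those of *Ncr1* (left) and *Ptprc* (right) in each library, minus the mean of the WT libraries. *Gzma* and *Gzmb* sit below the WT points in all KO libraries on both sides, and on the right KO5 is the lowest point for every gene but *Eomes*.

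Relative to *Ptprc*, which encodes CD45 and is carried by all leukocytes, the mean ratio of every member was lower in KO mice when KO5 was included. *Ptprc* itself rose from 149.9 ± 12.4 CPM in WT mice to 331.3 ± 103 CPM in KO mice (SD, n = 3), a log2 fold change of 1.15 (SE 0.209, edgeR adjusted p = 0.0290). The mean log2 difference of the ratio to *Ptprc* ran from -0.85 for *Gzmb* to -0.28 for *Klrk1*. *Gzma*, *Gzmb*, *Klrd1* and *Ctsw* had ratios below the WT range in every KO library (4 of 10 members, against 85.1% of all genes), and the other 6 overlapped. For *Ncr1* the ratio to *Ptprc* was 0.0229, 0.0206 and 0.0239 in WT4, WT5 and WT6 and 0.0239, 0.0116 and 0.0215 in KO4, KO5 and KO6, so only KO5 lay apart. Without KO5 the mean log2 difference of *Ncr1* was 0.02, those of the other members ran from -0.50 for *Gzmb* to -0.04 for *Klrb1c*, and *Klrk1* had -0.10. In that comparison 5 of 10 members lay below the WT range, with *Eomes* added, against 85.7% of all genes. Against *Cd3e*, a subunit of the T cell receptor complex, the ratios of all 10 members overlapped between the groups. The mean log2 differences ran from -0.51 for *Gzmb* to 0.05 for *Klrk1*. Without KO5 all 10 still overlapped, while 7970 of 17036 genes lay below the WT range. The differences then ran from -0.09 for *Gzmb* to 0.43 for *Ncr1*, and 3 were negative. For *Cd3e* the share of all genes was counted only with 1 library left out.

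The other genes of the pathway were followed as 8 lists by role, with 112 genes of which 100 were tested. Of these 20 were called higher and 1 lower in KO mice, beside 3.72% of all genes called higher and 6.39% called in either direction, and their median log2 fold change was 0.57, beside 0.00295 over all genes tested. Adaptors and kinases that carry the signal of the receptors had 4 of 11 genes called, all higher. *Tyrobp*, which encodes DAP12, the adaptor of several activating receptors, rose from 34.2 ± 4.52 to 62.8 ± 9.55 CPM (SD, n = 3; log2 fold change 0.87, edgeR adjusted p = 0.0208). *Sh2d1a*, which encodes the SAP adaptor of the SLAM receptors, rose from 0.949 ± 0.167 to 2.46 ± 0.359 CPM (SD, n = 3; log2 fold change 1.37, edgeR adjusted p = 0.0211). *Fcer1g*, the signalling chain that NKp46 uses, and *Vav1*, an exchange factor downstream, were the other 2 called, with log2 fold changes of 0.85 and 1.10. Without KO5, *Syk*, a kinase that binds these adaptors, was called in addition (0.68, edgeR adjusted p = 0.0196). Several of these adaptors also work in monocytes and B cells.

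Of the 24 further NK cell receptor genes tested, *Cd244* (2B4, log2 fold change 0.996, edgeR adjusted p = 0.0369) and *Slamf7* (0.94, edgeR adjusted p = 0.0255) were called, and 2 of 24 is close to the share called over all genes. A positive log2 fold change was fitted for 23 of the 24, and for 8622 of all 17037 genes. Without KO5, *Slamf6* was called in addition (0.84, edgeR adjusted p = 0.0366). The *Klra* genes of the Ly49 family were not called, and reads that match several of these near-identical genes cannot be assigned with certainty. Receptors and chemokines of NK cell traffic had 6 of 15 genes called, all higher, beside 3.72% of all genes called higher. *Cx3cr1* (1.52, edgeR adjusted p = 0.0118), the fractalkine receptor of mature NK cells and patrolling monocytes, and *S1pr5* (1.33, edgeR adjusted p = 0.0298), the receptor that leads NK cells out of lymphoid organs, were among them. *S1pr5* measured 4.91, 3.45 and 4.01 CPM in WT4, WT5 and WT6 and 9.87, 7.62 and 13.9 CPM in KO4, KO5 and KO6, with every KO library above the WT range. *Ccl5* (0.89) and *Itgam* (1.13) were called as well, the first a chemokine stored by cytotoxic lymphocytes and the second an integrin of NK and myeloid cells. *Cxcr3*, a receptor for interferon-induced chemokines, was called with all libraries but had an edgeR adjusted p of 0.0534 without KO5.

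Of the cytokines and receptors that sustain NK cells, 3 of 14 were called higher, beside 3.72% of all genes. *Il2rb* and *Il2rg*, the chains shared by the receptors of interleukins 2 and 15, had log2 fold changes of 0.85 and 0.60 (edgeR adjusted p = 0.0440 and 0.0454), and *Il18rap*, a chain of the interleukin 18 receptor, had 0.87 (edgeR adjusted p = 0.0283). Without KO5 the value of *Il2rb* was 0.65 and its call was lost (edgeR adjusted p = 0.0597). *Il15*, the cytokine NK cells depend on, had 0.19 and was not called. Among 11 transcription factors only *Tox* was called by the quasi-likelihood test (0.73, edgeR adjusted p = 0.0268). The exact test of edgeR and DESeq2 called 3 each, against 8.62% and 11.2% of all genes. Without KO5, *Ikzf3*, which encodes the lymphoid factor Aiolos, was called in addition (1.10, edgeR adjusted p = 0.0127). *Tbx21*, which encodes T-bet, the partner of EOMES, had 0.56 (edgeR adjusted p = 0.232), with *Nfil3* at -0.04 and *Id2* at -0.03.

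Genes of granule release, which most cells use in some form, had 2 of 8 called higher, beside 3.72% of all genes. They were *Stxbp2* (0.29, edgeR adjusted p = 0.0211) and *Stx11* (0.41, edgeR adjusted p = 0.0423), both needed for granules to fuse. Of the granule effectors and their activators 7 of 14 genes were tested. None was called by the quasi-likelihood test of edgeR, with 2 at an unadjusted p under 0.05. The exact test of edgeR called 1 and DESeq2 called 2, against 8.62% and 11.2% of all genes. *Gzmd*, *Gzme*, *Gzmg* and *Gzmn* had 0 counts in all libraries and *Gzmf* at most 1. *Ctsc*, which encodes the protease that activates granzymes in many cell types, had a log2 fold change of -0.05. Ligands of the receptors were mixed. *Clec2i* (2.08, or 1.54 without KO5) and *Cd48*, the ligand of 2B4 (0.95), were called higher, and *Pvr*, a ligand of the receptors CD226, CD96 and TIGIT, was called lower (-0.35, edgeR adjusted p = 0.0286). The NKG2D ligands *Raet1e*, *H60c* and *Ulbp1* had log2 fold changes from -0.33 to 0.20, none called.

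**Figure D4:**
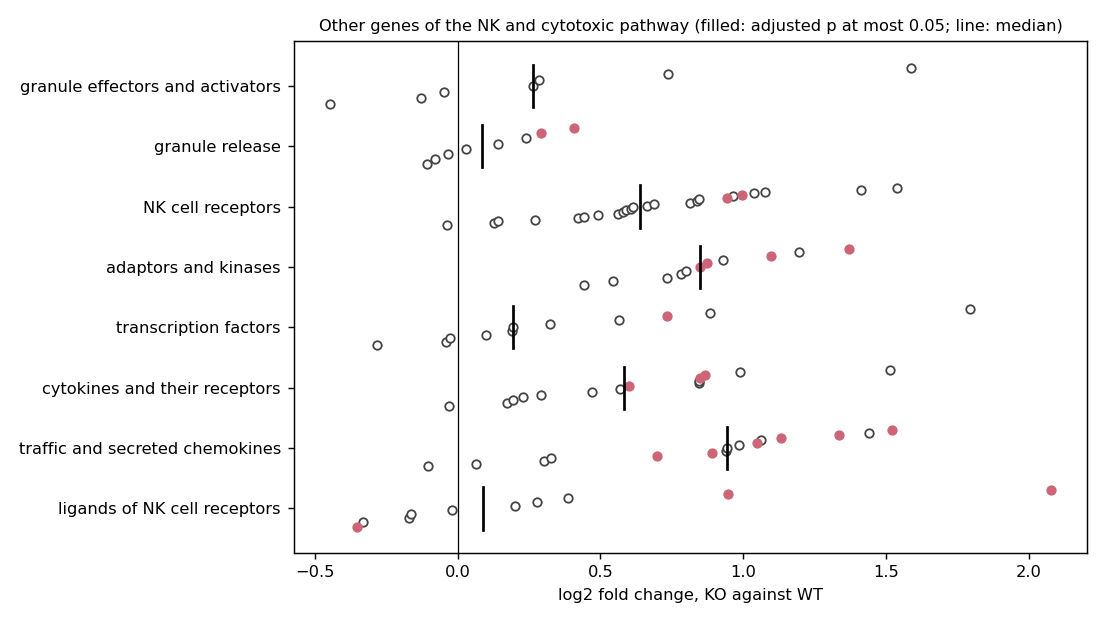
Log2 fold change in KO against WT lung of the 100 tested genes of the 8 pathway lists (points), with called genes filled and the median of each list as a line. Points of the adaptors and kinases all lie to the right of 0, and the medians of granule release and of the ligands lie close to 0.

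Markers of other cells moved with the groups, and their part in the results was not tested. All 6 pan-leukocyte genes were called higher, beside 3.72% of all genes. Their summed level was 460.3 to 544.2 CPM in WT libraries and 769.4 to 1344 CPM in KO libraries. The 16 T cell genes summed to 114.8 to 128.5 CPM in WT libraries and to 118.7, 282.8 and 157.3 CPM in KO4, KO5 and KO6. The sum of KO4 lay within the WT range. *Tcf7* was the largest part of the sum, with 43.9, 41.7 and 35.6 CPM in WT4, WT5 and WT6 and 30.1 CPM in KO4. In 11 of the 16 genes every KO library lay above every WT library, against 17.0% of all genes. None of the 16 was called by the quasi-likelihood test of edgeR, with 11 at an unadjusted p under 0.05. The exact test of edgeR called 3 and DESeq2 called 9, against 8.62% and 11.2% of all genes. *Cd3e* had 5.15, 5.61 and 6.08 CPM in WT4, WT5 and WT6 and 6.21, 14.5 and 9.53 CPM in KO4, KO5 and KO6. Without KO5 the median log2 fold change of the T cell genes was 0.36 instead of 0.87, and that of the members was 0.66 instead of 0.74. On the log2 scale of the sums, KO4 lay 0.02 below the WT mean for the T cell genes and 0.43 above it for the members. *Tcf7*, *Cd8a* and *Cd8b1* were below the WT range in KO4, while 11 of the 16 T cell genes were above it. *Cd8a* had 4.89 CPM in KO4 against 5.37 to 7.97 CPM in WT libraries, and *Cd8b1* had 2.59 against 3.31 to 5.64 CPM. Without KO5 the log2 fold changes of *Tcf7*, *Cd8a* and *Cd8b1* were -0.28, -0.13 and -0.29, while 13 of the 16 genes had positive values. Whether T cells account for the levels of the members was not tested.

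The 8 B cell genes were all higher in every KO library than in any WT library, with a median log2 fold change of 1.91, or 0.99 without KO5. By the quasi-likelihood test of edgeR 0 of them were called, with 8 at an unadjusted p under 0.05. The exact test of edgeR and DESeq2 called 8 each, against 8.62% and 11.2% of all genes. Without KO5 the quasi-likelihood test of edgeR called all 8. Monocyte genes had 4 of 7 called higher (*Ccr2*, *Treml4*, *Csf1r* and *Ly6c2*), or 3 without KO5, where *Ly6c2* had an edgeR adjusted p of 0.0519. Over all genes 3.72% were called higher with all libraries. *Cd14*, *Ace* and *Nr4a1* had log2 fold changes of 0.02, 0.01 and -0.02, with overlapping groups. The 7 genes summed to 1694 to 1734 CPM in WT libraries and to 2014, 1677 and 1821 CPM in KO4, KO5 and KO6. Most of the sum came from *Ace*, with 1448 CPM in WT and 1462 CPM in KO mice on average. Of the gamma-delta and NKT cell genes *Sox13* was called lower (-0.38), a gene that other lung cells express too. The 6 genes of that list summed to 267.9 to 390.9 CPM in WT libraries and 163.2 to 242.0 CPM in KO libraries, most of it from *Zbtb16* (173.2 CPM in WT and 62.4 CPM in KO mice on average) and *Sox13*. The 4 T cell receptor genes of the list had log2 fold changes in the other direction, from 0.36 for *Tcrg-C1* to 1.22 for *Tcrg-C4*, with *Trdc* at 0.53, none called, and the median of the list was 0.45. The 5 red cell genes were all called lower, beside 6.39% of all genes called in either direction. Their summed level was 2126 to 2277 CPM in WT libraries and 1035 to 1411 CPM in KO libraries. Mast cells and type 2 innate lymphoid cells, which can also hold granzyme or *Klr* RNA, had summed levels of 271.5 to 289.5 CPM in WT and 258.4 to 286.1 CPM in KO libraries for the first and 107.7 to 112.8 CPM in WT and 103.4 to 108.2 CPM in KO libraries for the second. The first sum was mostly *Kit* and *Hdc* and the second mostly *Rora* and *Gata3*, which other lung cells also express. The mast cell protease gene *Cma1* (1.08, edgeR adjusted p = 0.0964) and the receptor gene *Ms4a2* (0.95, edgeR adjusted p = 0.125) were not called, though every KO library lay above the WT libraries for both. *Sftpc*, *Scgb1a1* and the other 4 lung markers summed to 44037 to 53352.5 CPM in WT libraries and to 45182, 34237 and 41216 CPM in KO4, KO5 and KO6. All 6 were fitted lower in KO mice, as were 8415 of all 17037 genes, and none of the 6 was called.

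**Figure D5:**
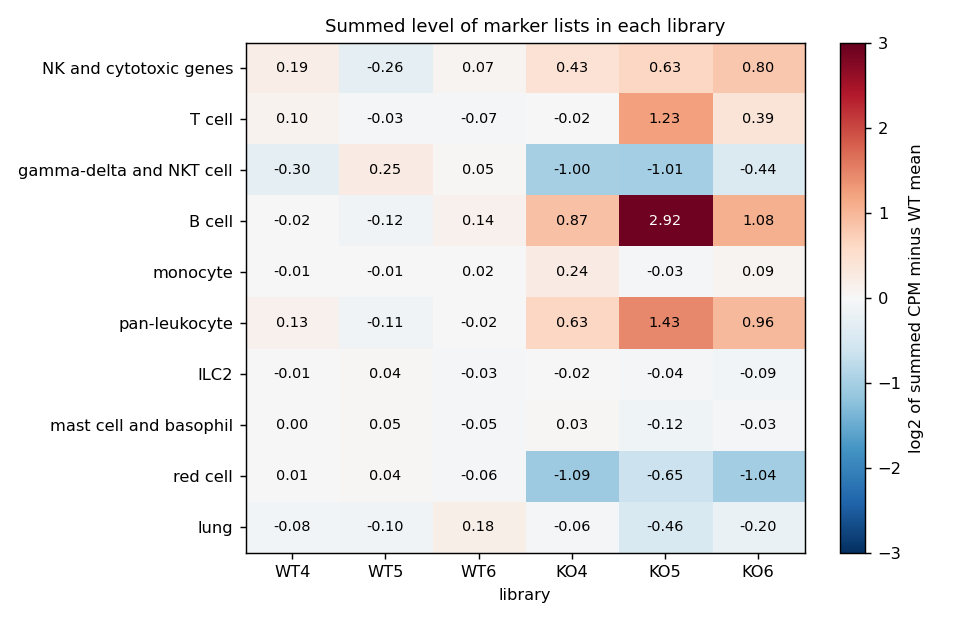
Summed CPM of each marker list in each library, as the log2 difference from the mean of the WT libraries. The members are above the WT mean by 0.43, 0.63 and 0.80 in KO4, KO5 and KO6, the B cell list peaks at 2.92 in KO5, and the red cell list is below the WT mean in all KO libraries.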

How the data were processed

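RNA from whole lungs of 3 WT and 3 KO mice at ZT10 was sequenced with a stranded mRNA kit. The authors trimmed the reads (Trimmomatic 0.36 per the submitters' processing notes), aligned them to GRCm38 with STAR 2.5.3a and counted them with HTSeq 0.6.0. The deposited values are whole read counts per Ensembl gene without normalization. The annotation release and the strand setting of the counting are not given in the sources used here.

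Counts were fitted in R 4.3.3 with edgeR 4.0.16 (glmQLFit and glmQLFTest, TMM, default filterByExpr with a minimum count of 10 and a minimum total of 15, no covariates), with Benjamini-Hochberg adjustment over the 17037 genes kept. The SE is the log2 fold change divided by the square root of F. CPM uses TMM-scaled library sizes. RPKM was computed from CPM and the exon length in GENCODE M21. At these depths 3 counts equal 0.0629 to 0.148 CPM. The fit was tested on simulated data. DESeq2 1.42.0 and other settings were run as alternatives. The labels give no litters or batches, so a difference in these could not be told apart from genotype. The p-values of the fits set the difference between the groups against the variation between these mice. Intervals cover counting error only.

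The members and gene lists were chosen with earlier results of these data known. Beside the members, the rule for naming genes takes up to 4 called genes of the smallest p-values and up to 2 of the highest mean CPM in each list, with *Zpbp2*, *Ptprc*, *Cd3e* for ratios and any gene at 3 counts or fewer in all libraries. *Xist*, *Ddx3y*, *Fibp*, *Gm44511* and *Gm33460* were used for checks. *Gzmk*, *Gzmm*, *Slamf6*, *Cxcr3*, *Ikzf3*, *Tcrg-C1*, *Tcrg-C4*, *Trdc*, *Cma1*, *Ms4a2*, *Tbx21*, *Nfil3*, *Id2*, *Il15*, *Tigit*, *Ccl3*, *Raet1e*, *H60c*, *Ulbp1*, *Cd8a*, *Cd8b1*, *Cd14* and *Nr4a1* were named after their values were seen. *Nectin2* was matched by its Ensembl ID and *Itgam*, a symbol on several rows, by GENCODE. Ratios use raw counts, and 31 ratios were compared, without adjustment, because none can pass a threshold of 0.05.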

Additional observations from a re-analysis of the deposited data

How the results depend on the processing

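In each of the 13 alternative fits all 10 members had a positive log2 fold change. Of the 130 member values in these fits, 109 kept their direction and their side of the threshold, 11 passed it in addition and 10 no longer passed it. Members called numbered 2, and this stayed at 2 with DESeq2 size factors, upper-quartile factors and at least 10 counts in every library. It was 3 with no filter, 4 with the exact test of edgeR, 7 with DESeq2 (all but *Gzma*, *Gzmb* and *Eomes*) and 0 when a log2 fold change of at least 1.5 in size was required as well. The exact test of edgeR called 8.62% of all genes and DESeq2 called 11.2%. All genes called numbered 1089 as reported, 1913 with DESeq2 and 109 with that fold threshold, and the related pathway genes numbered 21, 34 and 2. With 1 library left out, members called ranged from 0 to 4, related genes from 0 to 27 and all genes from 1 to 1278. The quasi-likelihood test of edgeR called 0 members without WT5, WT6 or KO6, where 7, 8 and 8 had an unadjusted p under 0.05, 1 without WT4, 4 without KO4 and 2 without KO5. Of all genes it called 0.0057%, 0.368% and 0.672% without WT5, WT6 and KO6. The shares were 1.48% without WT4, 7.3% without KO4 and 5.48% without KO5. Of the related genes it called 0 without WT5 (47 at an unadjusted p under 0.05), 1 without WT6 or KO6, 3 without WT4, 27 without KO4 and 22 without KO5. The labels give both groups the numbers 4 to 6. Same-numbered libraries did not deviate together (r = -0.08, -0.19 and -0.07 over 15986 genes), and the other pairs had r from -0.23 to 0.32. Deviations were taken from the mean of each group, which ties the values together. They therefore cannot decide whether the numbers pair the mice. With the replicate number as a block, 66 genes, 1 related gene and 0 members were called by edgeR, with 8 members at an unadjusted p under 0.05. The cause of these shifts was not tested. Members had 47 to 708 counts in a library. With 1 library left out, an alternative chosen after seeing the data, 2 to 5 members had a ratio to *Ncr1* below the WT range (5 without KO5) and 4 to 6 a ratio to *Ptprc* (6 without WT5).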

Other observations

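*Gzmk*, a granzyme of memory CD8 T cells, had 0.523, 0.527 and 1.68 CPM in WT4, WT5 and WT6 and 2.40, 3.42 and 2.62 CPM in KO4, KO5 and KO6, so the groups did not overlap (log2 fold change 1.59, edgeR adjusted p = 0.0801). *Gzmm*, a granzyme of NK cells and other innate lymphocytes, had 2.94, 2.11 and 2.65 CPM in WT4, WT5 and WT6 and 1.86, 2.24 and 1.48 CPM in KO4, KO5 and KO6, with overlapping groups (log2 fold change -0.45, edgeR adjusted p = 0.247). *Tigit*, an inhibitory receptor of T and NK cells, had 0.604, 0.958 and 1.65 CPM in WT4, WT5 and WT6 and 1.66, 4.15 and 3.56 CPM in KO4, KO5 and KO6 (log2 fold change 1.54, edgeR adjusted p = 0.0863). *Ccl3*, a chemokine of activated NK cells and macrophages, ranged from 0.564 to 4.24 CPM among WT libraries, wider than the range of 1.38 to 2.67 CPM among KO libraries.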
